A study of Saccharomyces cerevisiae with 4 samples.

Results

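The small (40S) subunit of the cytosolic yeast ribosome is built on the 18S rRNA from a fixed set of ribosomal proteins, whose genes carry the names RPS followed by a number. The genes described here are all protein-coding rows whose standard name begins with RPS and a digit, which are 56 of the 7071 gene rows in each library. They encode 32 proteins. Of these, 8 come from genes without a second copy (such as RPS2, RPS3, RPS12 and RPS31) and 24 come from pairs of paralogs, named A and B. Every member had counts in every library and passed the filter on low counts.

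In growing budding yeast the ribosomal protein genes are among the most strongly transcribed by RNA polymerase II, under Rap1, Fhl1 and Ifh1 at their promoters, and their mRNAs fall when growth signals through TORC1 and protein kinase A are withdrawn. Most paralogs derive from an ancient duplication of the whole genome, and the copies of a pair encode the same or almost the same protein. Many of the genes carry an intron, which is uncommon in this yeast. A few members control their own expression, such as RPS14B, whose pre-mRNA is bound by its protein product, and RPS28B, whose mRNA is decapped with the help of Edc3 when the protein is in excess.

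The RNA came from a wild-type laboratory strain of the W303 background, the same in every culture and arrested in G2/M by benomyl, a drug that takes microtubules apart (80 µg/ml, 90 min). In 2 samples, replicates a and b, only the solvent DMSO was added. In 2 others, also lettered a and b, it was thiolutin at 20 µg/ml for 30 min. The labels do not say whether the samples were grown as separate cultures. Thiolutin inhibits yeast RNA polymerases, and the comparison addresses which RNAs were lost or gained after that treatment. Before RNA extraction, each pellet (45 ml, OD 1) was combined with fission yeast cells (5 ml, OD 0.4), and large rRNA was depleted from total RNA.

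The libraries held between 11598766 and 48045781 expected counts, of which 6.56 to 11.8% lay on protein-coding genes. Thiolutin replicate b was the shallowest, with a median of 29 counts per protein-coding gene. RPS genes had 46 counts or more in every library, and the median RPS gene had 5596 and 9256 counts with DMSO and 3864 and 1198 with thiolutin, for replicates a and b. Among G2/M genes, CLB1, CLB2 and CDC5 were lower with thiolutin and the other 3 of 6 were not called. The 6 markers together had 966 and 1018 normalized counts with DMSO and 535 and 562 with thiolutin, and 6 G1 markers together had between 53.0 and 74.4 in any library. The part of this fall of G2/M genes in the results below was not tested.

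The members differ in how well short reads can tell them from their copy. Coding sequences of the 24 pairs were 84.3 to 99.2% identical (median 92.7%), and 9 pairs encode identical proteins. The values in the files are for the spliced coding sequence, with the same length as in the R64 annotation for all 56 genes. In 34 genes, and in both members of 13 pairs, every stretch of 65 bases, the mean read length implied by the files, was unlike any stretch of another gene. Sequences are shown for the 5 pairs whose copies differed most in log2 fold change. RPS23 is added, as its copies differed most in log2 fold change among the 9 pairs with identical proteins. Each is shown by the 65-base stretch of coding sequence, within 1 exon, in which the copies differ most. All stretches are from the R64 genome, 5′ to 3′ on the coding strand, and capitals mark the bases that differ between the copies. The RPS9 stretches lie at chrXVI:405680-405744 (plus strand) for RPS9A and chrII:605150-605214 (plus strand) for RPS9B.
RPS9A: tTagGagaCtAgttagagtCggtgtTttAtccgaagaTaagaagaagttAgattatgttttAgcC
RPS9B: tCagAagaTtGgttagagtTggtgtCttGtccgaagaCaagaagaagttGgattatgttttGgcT

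The RPS7 stretches, from the genes of the pair least alike in protein sequence (87.9% identity), lie at chrXV:505834-505898 (plus strand) for RPS7A and chrXIV:444211-444275 (minus strand) for RPS7B.
RPS7A: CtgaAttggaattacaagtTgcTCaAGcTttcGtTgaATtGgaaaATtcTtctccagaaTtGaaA
RPS7B: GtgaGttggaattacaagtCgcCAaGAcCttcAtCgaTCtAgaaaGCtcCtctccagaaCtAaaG

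Those of RPS27 lie at chrXI:159094-159158 (plus strand) for RPS27A and chrVIII:147925-147989 (minus strand) for RPS27B, and those of RPS28 begin with the start codon, at chrXV:648943-649007 (minus strand) for RPS28A and chrXII:673131-673195 (plus strand) for RPS28B.
RPS27A: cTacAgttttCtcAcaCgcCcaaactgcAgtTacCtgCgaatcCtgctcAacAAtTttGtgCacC
RPS27B: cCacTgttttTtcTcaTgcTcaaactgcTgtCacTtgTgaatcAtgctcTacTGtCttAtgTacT
RPS28A: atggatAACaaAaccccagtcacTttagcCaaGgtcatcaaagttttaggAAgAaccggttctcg
RPS28B: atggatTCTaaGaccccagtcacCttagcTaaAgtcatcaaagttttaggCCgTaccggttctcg

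For RPS26 and RPS23 the stretches lie at chrVII:148238-148302 (minus strand) for RPS26A and chrV:424238-424302 (plus strand) for RPS26B, chrVII:727564-727628 (plus strand) for RPS23A and chrXVI:795601-795665 (plus strand) for RPS23B.
RPS26A: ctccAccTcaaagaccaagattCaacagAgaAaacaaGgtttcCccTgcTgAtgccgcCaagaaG
RPS26B: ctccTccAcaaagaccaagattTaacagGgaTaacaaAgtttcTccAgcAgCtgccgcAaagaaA
RPS23A: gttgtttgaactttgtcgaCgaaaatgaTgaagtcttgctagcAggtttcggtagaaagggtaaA
RPS23B: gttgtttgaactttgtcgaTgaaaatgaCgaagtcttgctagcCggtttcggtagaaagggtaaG

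The share of such stretches was low in RPS6 (33.2%), RPS4 (64.4%) and RPS24 (68.9%), so a smaller share of their reads tells A from B. Their sums do not depend on that division.

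The members together held 25.95% (replicate a) and 25.73% (replicate b) of protein-coding TPM with DMSO, where thiolutin gave 25.62% and 23.13%. Both thiolutin libraries were below both DMSO libraries, thiolutin replicate a by little, and the difference of the means, -1.47 percentage points, was smaller than the SD of the thiolutin libraries (1.76, n = 2). The exact permutation p was 0.333 (two-sided), which is the smallest possible with 2 libraries against 2. Genes of the 60S subunit took 29.1 ± 0.125% of the same total with DMSO and 26.5 ± 1.42% with thiolutin (SD, n = 2 each).

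The 32 proteins are present once per subunit, but the mRNA levels of their genes, with A and B summed, spanned 62.4-fold in DMSO on the TPM scale. RPS31, which encodes the protein eS31 fused to ubiquitin, had the highest level in every library, 3.40 and 3.19% of protein-coding TPM with DMSO and 4.05 and 3.53% with thiolutin. It was followed by RPS12, a protein of the beak of the head, at 2.00 and 1.97% with DMSO and 2.03 and 1.87% with thiolutin. RPS15, whose protein sits in the head near the decoding site, had the lowest level with DMSO (0.0462 and 0.0593%), and it stood at 0.0637 and 0.0797% with thiolutin. RPS14, with a mean of 0.110% with DMSO, did not overlap RPS15. The median family had 0.738%. The least abundant single member was RPS7B (0.00388 and 0.00567% with DMSO), and RPS14B was also low (0.0289 and 0.0337%).

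**Figure D1:**
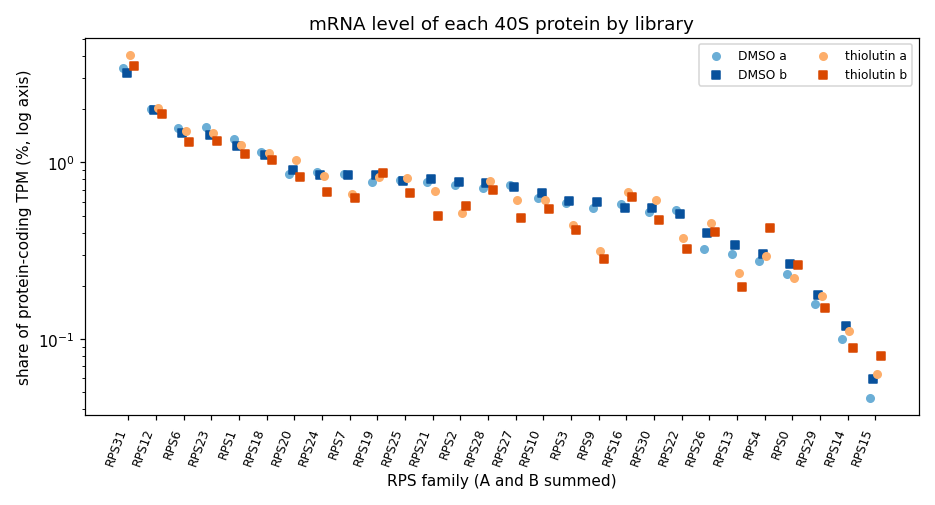
Share of protein-coding TPM (percent, log axis) of 28 of the RPS families, A and B summed, in each library; circles are replicates a and squares replicates b. The families run from RPS31, above 3% in every library, down to RPS15, below 0.08%, and within most families the 4 libraries lie close together on this scale.

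Relative to the typical gene, most RPS mRNAs were not called and a few moved far. With TMM normalization, 8 of the 56 genes rose with thiolutin and 5 fell (edgeR, adjusted p below 0.05), against 18.5% of all genes tested that rose and 17.6% that fell. The shares of the members, 14.3 and 8.93%, were below the background in both directions in this fit. With the DESeq2 Wald test 25.0% of the members rose, above the 15.5% of all genes, and 8.93% fell, against 10.2%. The median log2 fold change of the members was 0.20, beside -0.02 over all 5527 genes and -0.04 over the protein-coding genes. It was -0.007 without thiolutin replicate a and 0.32 without thiolutin replicate b. This median and the share of TPM differ in sign. The 43 genes that were not called had values between -0.38 and 0.47. In 34 of the 56 genes (60.7%) the thiolutin libraries did not overlap the DMSO libraries, against 69.9% of all genes tested. At the threshold of 1e-05, 1 member, RPS9A, was called, beside 0.995% of all genes.

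These counts depended on single libraries. Without DMSO replicate a, 1 member rose (6.5% of all genes did) and 3 fell (7.81% of all genes). Without DMSO replicate b, 4 rose (8.75% of all genes) and 3 fell (9.29%). Without thiolutin replicate a, 11 rose (20.8% of all genes) and 14, or 25.0% of the members, fell (19.2% of all genes). Without thiolutin replicate b, 29, or 51.8% of the members, rose (22% of all genes) and 5 fell (21.3%). The members were thus above the background in falls without thiolutin replicate a and in rises without thiolutin replicate b. The thiolutin libraries themselves differed, with 45 of the 56 genes higher in replicate a than in replicate b, by a median of 0.34 on the log2 scale, while the median difference between the DMSO libraries was -0.06. The 60S genes differed between the thiolutin libraries by a median of 0.30 in the same direction, and the other protein-coding genes by -0.01. The part of this difference in the results was not tested. RPS9A, RPS27A, RPS28B and RPS7B were the members called in each of the 4 fits that left out a library.

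Relative to the S. pombe cells added before RNA extraction, the picture was of a general fall. With S. pombe reads as the library size, the median over all genes tested was -1.01, so the whole scale was lower by about that amount, and 50.7% of all genes were called lower and 1.47% higher. Among the members, 25 were called lower (44.6%) and none higher, with a median of -0.79 and a range from -3.47 to 0.50. RPS7B was the only member above 0. The members stood above the median of all genes by 0.23 on this scale and 0.22 on the TMM scale. Each gene that rose on the TMM scale, except RPS7B, had a negative value on this scale. The rises, falls and calls of single genes given below are thus relative to the typical gene unless another scale is named. In these bulk libraries a smaller amount of an mRNA per cell and fewer cells cannot be told apart. With the counts of the RDN58 genes, for the small rRNA that pairs with 25S rRNA, as the library size the median was -0.73 for the members and -0.95 for all genes, with 24 members (42.9%) lower and none higher, against 48.5% of all genes lower and 1.61% higher.

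**Figure D2:**
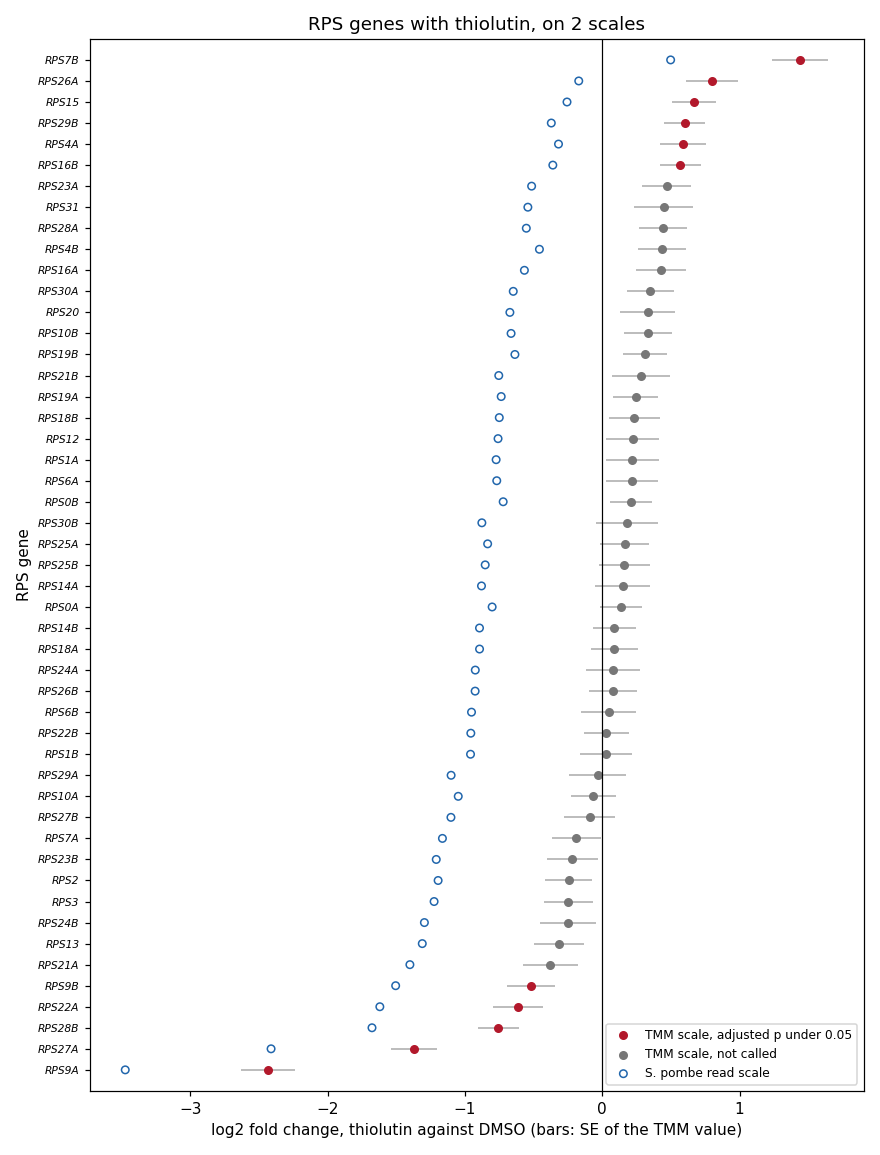
Log2 fold change with thiolutin of 49 of the RPS genes, ranked, relative to the typical gene (filled points with SE, red where the adjusted p was under 0.05) and relative to S. pombe reads (open circles). RPS9A and RPS27A lie far below the rest and RPS7B far above on both scales, and the open circles lie about 1 unit to the left.

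Among the genes without a second copy, 2 of 8 rose and none fell on the TMM scale, where 18.5% of all genes rose and 17.6% fell. Neither rise was called without DMSO replicate a. RPS15 had 612 and 773 normalized counts with DMSO and 1054 and 1153 with thiolutin (replicates a and b), without overlap, and a log2 fold change of 0.67 ± 0.16 (SE; edgeR adjusted p = 0.00822). Without DMSO replicate a the edgeR adjusted p of RPS15 was 0.202. The other 6 were not called. RPS31 had a log2 fold change of 0.45 ± 0.21, RPS20, a head protein that is ubiquitinated on colliding ribosomes, 0.33 ± 0.20, and RPS12 0.22 ± 0.19, each with both thiolutin libraries above the DMSO libraries. RPS2 and RPS3, which form part of the mRNA entry channel, had values of -0.25 ± 0.17 and -0.25 ± 0.18. RPS13, a body protein, had -0.31 ± 0.18. In each of these genes both thiolutin libraries lay below. On the S. pombe scale RPS2, RPS3, RPS13 and RPS12 were called lower, with log2 fold changes of -1.2, -1.22, -1.31 and -0.76. On that scale 50.7% of all genes were called lower.

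The largest change among the members was the fall of RPS9A. Rps9 (uS4) is a protein of the body that binds 18S rRNA early in assembly and takes part in the accuracy of decoding. The deposited counts of RPS9A were 2103 and 4243 after DMSO but 311 and 82.9 after thiolutin, or 1492 and 1804 normalized counts with DMSO and 350 and 244 with thiolutin. The groups lay far apart. The log2 fold change was -2.43 ± 0.20 (SE; edgeR adjusted p = 8.53e-06), a level 5.40-fold lower, and between -2.75 and -2.25 when any library was left out. RPS9B, the more abundant copy, had 8952 and 9407 normalized counts with DMSO and 7153 and 5629 with thiolutin. It fell as well, by a smaller amount (log2 fold change -0.52 ± 0.18, edgeR adjusted p = 0.0385), and this call was lost without DMSO replicate a or b. On the TMM scale RPS9 was the only pair of which both copies were called lower. On the S. pombe scale, where 50.7% of all genes were called lower, this also held for RPS27 and RPS22, among other pairs.

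RPS27A was next among the falls. Rps27 (eS27) is a zinc-binding protein of the platform side. RPS27A had 402 and 420 normalized counts with DMSO and 174 and 135 with thiolutin, with a log2 fold change of -1.37 ± 0.17 (edgeR adjusted p = 0.000162). Its partner RPS27B, the more abundant copy, had 4590 and 4396 with DMSO and 4974 and 3434 with thiolutin. The libraries of RPS27B overlapped, and its log2 fold change was -0.09 ± 0.19.

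RPS28B fell too. Rps28 (eS28) is a small head protein at the mRNA exit. RPS28B had 797 and 827 normalized counts with DMSO and 446 and 524 with thiolutin (log2 fold change -0.76 ± 0.15, edgeR adjusted p = 0.00305). RPS28A had 2815 and 2984 with DMSO but 4513 and 3346 with thiolutin, without overlap, and a log2 fold change of 0.44 ± 0.17 that did not pass the test (edgeR adjusted p = 0.0703).

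RPS22A, which encodes the 18S-binding protein uS8, was the other gene that fell. It had 3984 and 3888 normalized counts with DMSO and 3015 and 2119 with thiolutin (log2 fold change -0.61 ± 0.18, edgeR adjusted p = 0.0232), and its call was lost without DMSO replicate a and without DMSO replicate b. RPS22B had overlapping libraries and a log2 fold change of 0.03 ± 0.16.

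RPS7B showed the largest rise. Rps7 (eS7) is a body protein that is ubiquitinated by Not4 in yeast. The gene was weakly expressed, with 243 deposited counts in the deepest library and 82.0 in the shallowest, and its normalized counts were 71.7 and 103 with DMSO and 241 in each thiolutin library. The groups did not overlap, and the log2 fold change was 1.44 ± 0.20 (edgeR adjusted p = 0.000412). On the S. pombe scale it was 0.50 (edgeR adjusted p = 0.293). RPS7A, which supplied nearly all of the pair's counts, had 15854 and 15344 normalized counts with DMSO and 14971 and 12405 with thiolutin, with a log2 fold change of -0.19 ± 0.18.

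RPS26A, for the zinc-binding protein eS26 that sits at the mRNA exit and is brought to the ribosome by Tsr2, had 1657 and 2314 normalized counts with DMSO and 3812 and 3095 with thiolutin (log2 fold change 0.80 ± 0.19, edgeR adjusted p = 0.00749). RPS26B had 1804 and 1888 with DMSO and 2246 and 1630 with thiolutin, which overlap (0.08 ± 0.17). RPS26A lost its call without DMSO replicate a (edgeR adjusted p = 0.197). RPS29B, RPS4A and RPS16B also rose, by 0.60, 0.59 and 0.57 on the log2 scale, and each lost its call without DMSO replicate a and without DMSO replicate b.

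**Figure D3:**
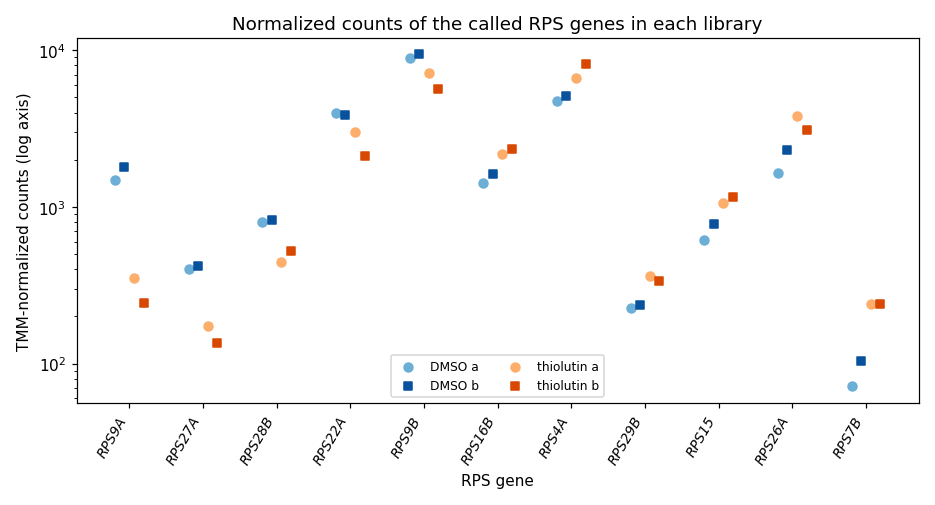
TMM-normalized counts (log axis) of 11 of the 13 RPS genes called at an adjusted p under 0.05, in each library, ordered from the largest fall to the largest rise. For each gene the thiolutin libraries (orange) lie on the same side of both DMSO libraries (blue), with the widest gap for RPS9A.

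Summing the A and B rows of each pair left few changes. With the 24 sums in place of the single rows, 1 pair rose (18.5% of all rows tested did) and 1 fell (17.5%). RPS4, for the body protein eS4, rose with a log2 fold change of 0.54 ± 0.18 (edgeR adjusted p = 0.035), and RPS9 fell with -0.69 ± 0.18 (edgeR adjusted p = 0.0115). The RPS9 pair summed to 10450 and 11205 normalized counts with DMSO and 7515 and 5864 with thiolutin, without overlap. The sums ranged from -0.69 to 0.54, with a median of 0.15. The calls again moved with the libraries, with 0 pairs higher or lower without DMSO replicate a (7.52 and 8.46% of all rows were) or DMSO replicate b (8.53 and 8.99%). Without thiolutin replicate a, 3 pairs were higher and 4 lower (20.8 and 19.2% of all rows), and without thiolutin replicate b, 13 were higher and 1 lower (22.1 and 21.3%). Relative to S. pombe reads, 13 of the 24 sums were lower and none was higher, close to the 50.7% of all rows that were lower and the 1.45% that were higher, with values from -1.68 for RPS9 to -0.36 for RPS4.

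The balance between the copies can be compared without any scaling between libraries, since the A and B counts of a pair come from the same library. The log2 ratio of A to B counts was tested with limma over all 61 pairs of yeast genes whose names differ only in a final A or B, of which 35 of the 37 outside the RPS genes encode proteins of the 60S subunit. This test was chosen after the files had been seen. It called 12 of the 24 RPS pairs, against 49.2% of all 61 pairs, so the share of RPS pairs was close to the background in this fit. The median size of the change was 0.38 in the RPS pairs and 0.41 over all 61. The A shares of the thiolutin and DMSO libraries did not overlap in 17 of the 24 RPS pairs, the 12 called among them, against 72.1% of all 61 pairs. The number of RPS pairs called was 3 without DMSO replicate a (6.56% of all 61 pairs, or 4, were called), 4 without DMSO replicate b (16.4%), 13 without thiolutin replicate a (50.8%) and 8 without thiolutin replicate b (36.1%). The direction of all 12 was kept in each of these fits. Since their A shares did not overlap between the groups, leaving out 1 library could not turn it, so this is no further support. With 2 libraries a group, the smallest p of exact permutation for the share of 1 pair is 0.33.

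**Figure D4:**
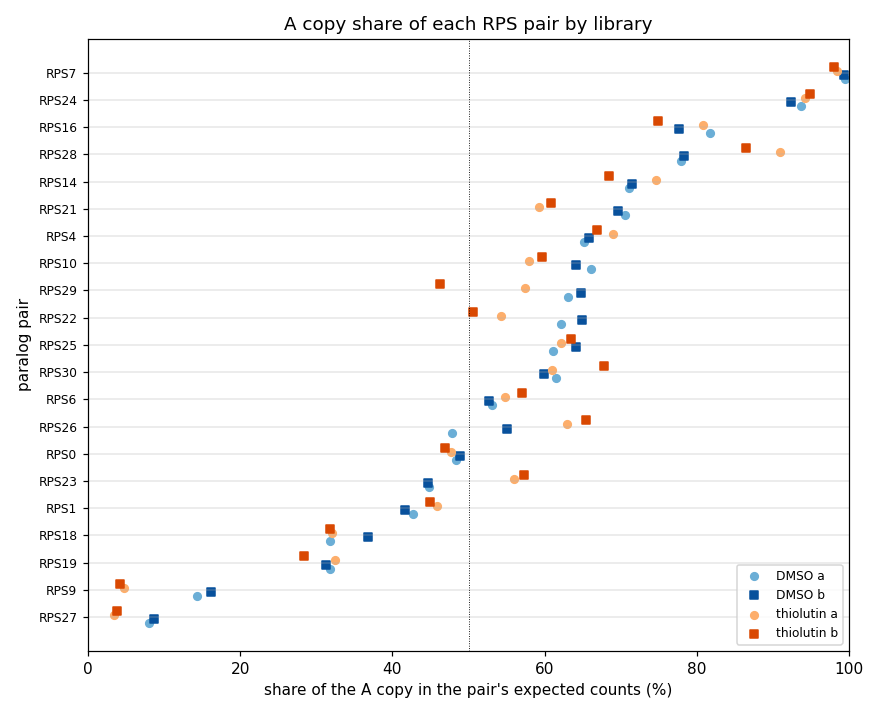
Share of the A copy in the expected counts of 21 of the RPS pairs (percent), in each library, ordered by the DMSO mean. RPS27 and RPS9 move to the left with thiolutin and RPS28 and RPS26 to the right, while the libraries of RPS25 and RPS14 overlap between the groups.

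RPS9A made up 14.3 and 16.1% of the RPS9 counts with DMSO and 4.67 and 4.15% with thiolutin, and the log2 ratio of A to B changed by -1.95 ± 0.14 (SE; limma adjusted p = 9.02e-05). The 95% Wilson intervals, which cover counting error only, ran from 13.7 to 14.9% for DMSO replicate a and from 3.37 to 5.13% for thiolutin replicate b, so that counting error was small beside the change. In RPS7 the A share went from 99.6 and 99.3% with DMSO to 98.4 and 98.1% with thiolutin, as RPS7B gained, a change of -1.68 ± 0.20 in the log2 ratio (limma adjusted p = 0.00101). RPS27A went from 8.06 and 8.71% to 3.37 and 3.79% (-1.29 ± 0.13, limma adjusted p = 0.000587). These 3 pairs were called in each fit without a library.

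RPS28 moved in the other direction. RPS28A made up 77.9 and 78.3% with DMSO and 91.0 and 86.5% with thiolutin, a change of 1.17 ± 0.21 in the log2 ratio (limma adjusted p = 0.00523). RPS26A went from 47.9 and 55.1% to 62.9 and 65.5% (0.76 ± 0.17, limma adjusted p = 0.00912). RPS23A, one of a pair that encodes the identical protein uS12 of the decoding centre, went from 44.8 and 44.7% to 56.0 and 57.3%, so that the more abundant copy with DMSO, RPS23B, was the less abundant with thiolutin (0.69 ± 0.12, limma adjusted p = 0.00459). Neither RPS23 copy passed the test on its own, with log2 fold changes of 0.47 and -0.22.

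Among the other pairs called, RPS21A, RPS22A, RPS29A and RPS10A lost on their partner. RPS21A, for the protein eS21 that lies against Rps0, went from 70.6 and 69.7% to 59.2 and 60.8%. RPS22A went from 62.1 and 64.9% to 54.3 and 50.5%. RPS29A, for a zinc-binding head protein, went from 63.0 and 64.8% to 57.4 and 46.3%, with the thiolutin libraries far apart. The ratio of RPS10A to RPS10B changed by -0.39 on the log2 scale (limma adjusted p = 0.0334), and by -0.45 to -0.33 when a library was left out. The RPS10 call was lost whichever library was left out. The calls of RPS21, RPS22 and RPS29, and of RPS23, RPS26 and RPS28 above, were each lost in some of these fits. In 8 of the 12 pairs the copy with the lower mean with DMSO gained on the other. In the other 4, RPS9, RPS26, RPS27 and RPS28, the more abundant copy did, although the RPS26 copies were nearly equal with DMSO. The lower copy was set by the same DMSO libraries that enter the change. No such count was made for pairs outside the RPS genes, so no trend can be read from it.

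In the 12 pairs not called the change was at most 0.37 in size, in RPS24. This group holds RPS6, RPS4 and RPS24, whose copies are hard to tell apart in reads, and the part of this in the lack of a call was not tested. It also holds pairs whose reads are fully distinct, such as RPS0 (-0.07 ± 0.12), RPS25 (0.01 ± 0.13) and RPS18 (-0.15 ± 0.14). RPS14, whose B copy is under feedback by its protein, had a change of 0.02 ± 0.17, and RPS14B itself had 370 and 426 normalized counts with DMSO and 448 and 391 with thiolutin.

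**Figure D5:**
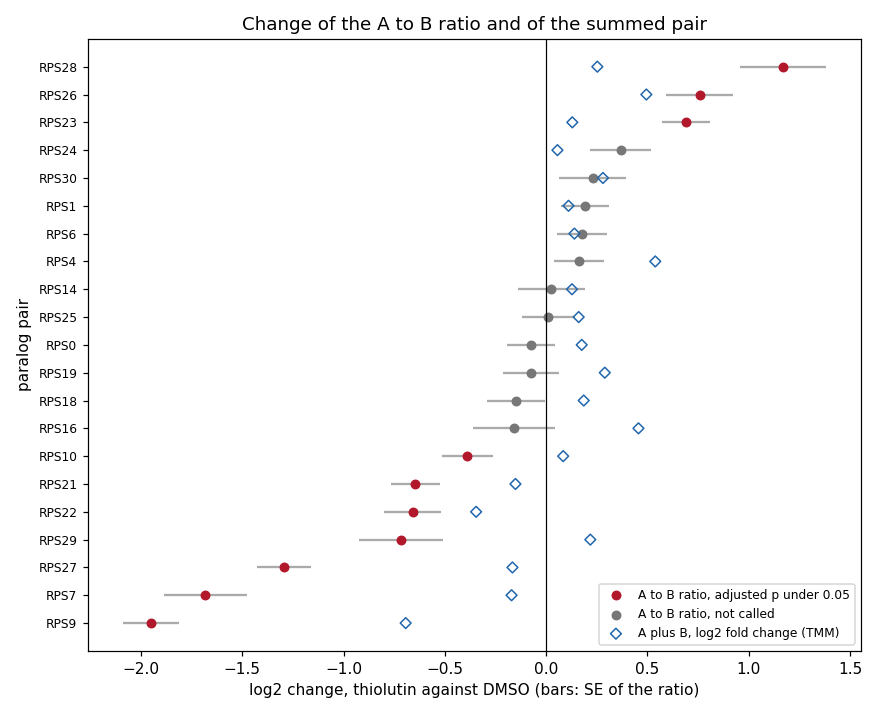
Change with thiolutin of the log2 A to B ratio of 21 of the RPS pairs (points with SE, red where the limma adjusted p was under 0.05) and log2 fold change of the summed pair (open diamonds). The ratios run from -1.95 for RPS9 to 1.17 for RPS28, while the sums stay between -0.69 and 0.54.

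Other features of the members are given as descriptions, with calls on the TMM scale, on which 18.5% of all genes rose and 17.6% fell. Of the 36 genes with an annotated intron 4 rose and 3 fell (median log2 fold change 0.17), and of the 20 without 4 rose and 2 fell (median 0.22). Of 22 genes for head proteins 4 rose and 1 fell (median 0.24), and of 34 for the body and platform 4 rose and 4 fell (median 0.11). Of the 82 genes for 60S proteins 21 were called higher and 1 lower on this scale, with a median of 0.15 and values from -0.64 to 0.98. These are 25.6 and 1.22% of them, against 18.5 and 17.6% of all genes. The counts were 1 higher and 0 lower without DMSO replicate a, 7 and 0 without DMSO replicate b, 25 and 17 without thiolutin replicate a, and 40 and 2 without thiolutin replicate b. The difference between the 40S and 60S genes was not tested.

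Promoters were searched on both strands over 400 bases, ending 100 bases before the start codon. The letters ACCCNNACA, the core of a Rap1 site, were found in 18 of 56 RPS promoters (32.1%), in 43.9% of 60S promoters and in 5.05% of 5986 promoters of protein-coding genes. The letters GACGCA, for Fhl1, were found in 10.7% of RPS promoters and 9.36% of all, AAAATTTT in 7.14 and 10.4%, and GATGAG, the PAC element, in 17.9 and 23.5%. No motif's letters contain those of another. Among genes with an ACCCNNACA match 2 of 18 rose and none fell (median 0.23). Among those without, 6 of 38 rose and 5 fell (median 0.16), where 18.5% of all genes rose and 17.6% fell. In 5 of the 12 pairs with a changed balance, and in 6 of the other 12, 1 copy alone had a match. The matches of 3 of those 5 pairs are shown in capitals, from R64, 5′ to 3′ on the strand of the gene, at chrXV:505294-505345 (plus strand) for RPS7A, chrX:157591-157631 (minus strand) for RPS21B and chrXVI:794641-794681 (plus strand) for RPS23B.
RPS7A: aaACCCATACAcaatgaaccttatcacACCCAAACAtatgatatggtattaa
RPS21B: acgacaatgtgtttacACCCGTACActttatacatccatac
RPS23B: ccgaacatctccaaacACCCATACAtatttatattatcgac

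The copy with a match lost on its partner in RPS7 and RPS23 and gained in RPS21.

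Of 12 regulators of ribosomal protein genes 11 were tested, 3 fell and none rose, with a median log2 fold change of -0.30, where 17.6% of all genes fell and 18.5% rose. They were FHL1, a forkhead protein bound at these promoters (131 and 118 normalized counts with DMSO, 47.3 and 44.1 with thiolutin, -1.43), SFP1, a transcription factor that promotes their expression (-1.20), and SCH9, a kinase downstream of TORC1 (-1.38). These 3 calls rest on low deposited counts with thiolutin, 42 and 15 for FHL1, 17 and 10 for SFP1, and 17 and 5 for SCH9. RAP1 and IFH1 had -0.30 and -0.08 and were not called. Of 16 factors that assemble the 40S subunit, 4 rose and 2 fell, against the same shares of all genes. YAR1, the chaperone of newly made Rps3, had 233 and 248 normalized counts with DMSO and 924 and 712 with thiolutin (log2 fold change 1.78, edgeR adjusted p = 2.59e-05), while RPS3 itself had -0.25. LTV1, another partner of Rps3, NOB1, the nuclease that cuts the end of 18S rRNA, and DIM1, which methylates it, rose by 0.55, 0.55 and 0.60. PNO1 and EMG1 fell by 0.65 and 0.75 on the log2 scale. TSR2, which carries Rps26, had -0.24 and was not called. ASC1, the 40S-bound RACK1 of yeast, had -0.14 and was not called, and STM1, which clamps idle ribosomes, rose by 0.51.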

How the data were processed

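Total RNA of 4 samples was sequenced (single-end, stranded). Per the labels and the paper's methods, the authors mapped reads with STAR 2.7.3a and estimated expression with RSEM 1.3.1 against sacCer3, which is R64. The deposited expected counts are estimated reads per gene, with reads that map to several genes divided among them, and are not normalized. TPM values, also deposited, correct for gene length. FPKM values were not used.

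Expected counts were rounded, with ties up. The filter filterByExpr left 5527 genes, which were scaled by TMM and tested with the quasi-likelihood method of edgeR 4.0.16 (R 4.3.3), with Benjamini-Hochberg adjustment over all genes at 0.05. The SE is the log2 fold change over the square root of F. Ratios of paralogs, log2((A + 0.5)/(B + 0.5)), were tested with limma 3.58.1 over 61 pairs with 20 counts or more on average in each copy, adjusted over those pairs. DESeq2 1.42.0, S. pombe reads listed with the study (mapped by the authors with Bowtie 1.2.2) or RDN58 rRNA counts as library size, other filters and tests, a replicate block and leaving out each library were alternatives. The scripts were tested on simulated data. Counts of replicates differed beyond sampling (chi-square over its degrees of freedom 4.45 for DMSO, 6.41 for thiolutin). Nothing in the labels says that they were separate cultures on separate days, so p-values measure the spread between these samples.

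The members and gene lists were chosen with earlier results of these data known. The genes named with values are the 8 without a copy, the 5 with the largest and the 5 with the smallest log2 fold change, both copies of the 5 pairs that differed most, and the 3 highest and 3 lowest in TPM share. Others were named after their values were seen. Some members enter every count and fit but are not reported here singly.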

Additional observations from a re-analysis of the deposited data

How the results depend on the processing

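Scale and single libraries moved the counts most. With S. pombe reads as library size 0 RPS genes were higher and 25 lower, with RDN58 rRNA counts 0 and 24, and the median log2 fold change was -0.79 and -0.73. The DESeq2 Wald test called 14 higher, and the threshold of 1e-05 left 0 higher and 1 lower. Leaving out a library gave 1 to 29 genes higher and 3 to 14 lower. For summed pairs, 0 were higher and 13 lower on both the S. pombe and the RDN58 rRNA scale. With no filter on low counts 2 were higher, beside 17.3% of all single genes. With DESeq2 size factors, protein-coding rows only, the likelihood ratio test and the DESeq2 Wald test 4 were higher. Of all single genes 19.7, 20.0, 20.3 and 15.5% were higher in these fits. Leaving out a library gave 0 to 13 sums higher and 0 to 4 lower, and 3 to 13 RPS pairs with a changed A to B ratio. With 1 library left in a group, that library is assumed to vary like the others. The share of RPS in protein-coding counts in place of TPM fell by 1.67 percentage points. This was less than the SD of the thiolutin libraries (1.95, n = 2) but more than that of the DMSO libraries (0.272, n = 2). Both thiolutin libraries were again below both DMSO libraries.

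Among single genes, the sign turned on the S. pombe and RDN58 rRNA scales for RPS12 (-0.76 and -0.70), RPS15 (-0.26 and -0.20), RPS20 (-0.67 and -0.61), RPS31 (-0.54 and -0.48), RPS26A (-0.17 and -0.11), RPS28A (-0.55 and -0.49), RPS26B (-0.93 and -0.86) and RPS14B (-0.89 and -0.83). RPS2, RPS3, RPS13, RPS7A and RPS27B kept their sign and were called lower on both of these scales, but not on the TMM scale. Leaving out a library turned the sign of RPS27B (-0.39 to 0.13), RPS26B (-0.18 to 0.26) and RPS14B (-0.026 to 0.19). None of these was called on the TMM scale with all 4 libraries. For RPS28A the side of the threshold depended on the method. It was called higher with DESeq2 size factors, protein-coding rows only, no filter on low counts and the likelihood ratio test (edgeR adjusted p 0.0428 to 0.0492). The DESeq2 Wald test also called it (adjusted p = 0.0256), but the replicate block did not (edgeR adjusted p = 0.0615). RPS31 was called higher by the DESeq2 Wald test (adjusted p = 0.0157). Of 228 values of named genes under alternatives, 176 kept direction and side of the threshold, and no difference between A and B of a called pair changed sign. Leaving out a library could hardly change that sign, since the A shares of these pairs did not overlap between the groups. The causes were not tested.

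The differences between replicates a and b were nearly uncorrelated between the DMSO and thiolutin groups (correlation 0.0332). This value cannot show whether the letters mark a pairing by design. A fit with the replicate block called 10 RPS genes higher and 5 lower, with a median of 0.18, and 4 summed pairs higher and 1 lower. These were 17.86% of the single RPS genes higher and 8.93% lower, where 19.34% of all single genes were higher and 17.03% lower. The members were thus not above the background in either direction in this fit. The depth of thiolutin replicate b limits the genes of low count, such as RPS27A with 46 counts and RPS7B with 82.0.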
